A study of Mus musculus with 4 samples.

Results

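The genes described here are the protein subunits of the 5 oxidative phosphorylation complexes, 101 genes chosen by symbol and by protein-coding type out of 50488 gene identifiers that all 4 libraries list. The mitochondrial genome encodes 13 of them (symbols starting mt-), and nuclear chromosomes encode the other 88. Another 2 identifiers with matching symbols, those of Ndufb1 and a second Atp5po, were not listed for all 4 libraries and were not used. The symbol rule also takes in tissue-restricted paralogs, the ATP synthase inhibitor Atp5if1, the supercomplex factor Cox7a2l and the retrogene-like Cox5b-ps and Ndufb11b. Ndufa4 and Ndufa4l2 were counted with complex IV, where the protein sits, in spite of their symbols.

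Poly-A RNA of mouse joint cartilage had been sequenced as 4 libraries, 1 for each condition, and the extraction notes name osteoblasts. The study asked what loss of Cbfβ, the partner subunit of the Runx transcription factors, does in articular cartilage, and the labels name that tissue. The hip control came from Cbfβf/f mice without Cre, whose label gives no treatment (the study's methods give TMX or corn oil to its mice), and the other hip library from tamoxifen (TMX)-injected Cbfβf/f;Col2α1-CreERT mice, with an age of 6 weeks given for both in a figure legend and other ages elsewhere in the study. The knee control came from oil-injected Cbfβf/f;Aggrecan-CreERT mice, and the other knee library from TMX-injected mice of that genotype, with an age of 12 weeks given for both. All 4 groups carry the floxed Cbfβ alleles, and each Cre is driven by the promoter of a gene that chondrocytes express, Col2α1 also being active in precursor cells of the joint, so cells without that promoter's activity keep Cbfβ. The hip pair therefore also differs in Cre and, by its labels, in TMX. The joints differ in the Cre line, the age, what the control was, and the gene list and form of the count files. By the study's own account they also differ in bone that came with the knee cartilage, and these differences cannot be told apart. Cbfb itself, the deleted gene, had 2548 counts in the hip control, 2946 in the hip library labelled Cbfb-deficient, 3796 in the knee control and 4572 in the knee library labelled Cbfb-deficient. After TMM normalization its log2 ratio stood at 0.41 in the hip (95% counting interval 0.33 to 0.48) and at -0.07 in the knee (-0.13 to -0.01). With the length and GC trend of the transcripts taken out, by subtracting the median of all genes of like length and then of like GC content, these were -0.28 and -0.005, and by library size alone the knee value was 0.11. The lower level that the labels would give was thus seen in the hip only with that removal, and in the knee it was slight or turned with the scaling, and a count summed over the gene cannot tell whether the floxed exon was lost. The libraries are called here by their labels.

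The libraries also differed in the tissue that their marker genes point to. In the hip, 14 chondrocyte genes together held 0.0258% of the counts in the control and 0.0105% in the library labelled Cbfb-deficient, against 0.623% and 0.309% in the knee, with none of the 14 at 0. Those of 20 skeletal muscle genes came to 19% and 19.7% in the hip, against 1.42% and 3.04% in the knee, and 7 erythroid genes took 0.588%, 0.222%, 9.97% and 4.92% in the same order. The shares of 8 osteoblast genes were 0.0915%, 0.0216%, 1.2% and 0.695%, and those of 8 fat cell genes 0.0243%, 0.0392%, 0.0699% and 0.121%. In bulk RNA of this kind, fewer cells of a type and less RNA per cell cannot be told apart. Counts on genes totalled 34264456 to 38473120 per library, so that 3 counts, the floor used here, equal 0.078 to 0.0876 counts per 1000000 (CPM).

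Oxidative phosphorylation passes electrons from NADH and succinate through complexes I and II to complex III, cytochrome c and complex IV, and complex V uses the proton gradient this builds to make ATP. Complexes I, III, IV and V are built from subunits of both genomes, while complex II is nuclear only. The mitochondrial genes are copied as long transcripts from each strand and cut apart, and nuclear subunits are made in the cytosol and imported, so that the supply of subunits depends on both genomes. Articular cartilage has few blood vessels and low oxygen, and chondrocytes are known for making much of their ATP by glycolysis, whereas skeletal muscle is rich in mitochondria and uses its own paralogs of some complex IV subunits.

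Of the 13 mitochondrial genes, 6 have near-complete copies in the nuclear genome, which bears on how their reads could be counted. In the GRCm39 genome, mt-Co2, mt-Co3, mt-Atp6, mt-Atp8 and mt-Nd4l had an exact nuclear copy of 100% of their 100-base windows, and mt-Nd3 of 98.8%. The copies lie mainly in a stretch of 4650 bases at chr1:24650616-24655265 and in part at chr2:22477571-22480212. The window below, the opening 100 bases of mt-Atp8 at chrM:7766-7865 on the plus strand, is shown as an example, and all its letters recur unchanged at chr1:24653794-24653893 on the minus strand.
mt-Atp8: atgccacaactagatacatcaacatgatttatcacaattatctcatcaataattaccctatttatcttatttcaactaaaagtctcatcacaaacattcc
A read that lies within such a window has at least 2 exact placements. The other genes were copied less, with 60.8% of the windows of mt-Nd4, 30.7% of mt-Co1 and 3.2% of mt-Nd2, and none of mt-Nd1, mt-Nd5, mt-Nd6 or mt-Cytb.

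The nuclear subunits that the results turn on include paralogs of complex IV with a widely expressed and a muscle-type form. The promoters of 3 of them are shown to compare such forms, from RefSeq on GRCm38.p6, each with 250 bases before and 50 after the start and read along the gene. Capitals mark CGCATGCG (the core of the NRF1 site), CCGGAAG (an ETS site, of the kind GABPA binds) and CAGCTG (an E-box), on either strand. The Cox6a1 and Cox8a entries belong to the widely expressed forms at chr5:115348909-115349208 and chr19:7217567-7217866, and the Cox8b entry to the muscle-type form at chr7:140900397-140900696, all on the minus strand.
Cox6a1: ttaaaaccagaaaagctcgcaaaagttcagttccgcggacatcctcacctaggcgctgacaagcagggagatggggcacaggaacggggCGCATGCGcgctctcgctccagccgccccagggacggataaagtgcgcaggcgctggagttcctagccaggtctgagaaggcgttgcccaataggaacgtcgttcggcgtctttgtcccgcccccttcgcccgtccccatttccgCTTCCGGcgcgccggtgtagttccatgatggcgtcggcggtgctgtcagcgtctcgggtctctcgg
Cox8a: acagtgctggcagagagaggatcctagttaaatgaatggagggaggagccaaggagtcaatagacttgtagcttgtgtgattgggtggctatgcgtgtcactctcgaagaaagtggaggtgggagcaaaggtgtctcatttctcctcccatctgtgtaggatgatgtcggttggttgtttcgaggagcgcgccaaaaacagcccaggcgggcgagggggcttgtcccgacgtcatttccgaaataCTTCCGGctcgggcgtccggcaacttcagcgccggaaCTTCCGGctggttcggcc
Cox8b: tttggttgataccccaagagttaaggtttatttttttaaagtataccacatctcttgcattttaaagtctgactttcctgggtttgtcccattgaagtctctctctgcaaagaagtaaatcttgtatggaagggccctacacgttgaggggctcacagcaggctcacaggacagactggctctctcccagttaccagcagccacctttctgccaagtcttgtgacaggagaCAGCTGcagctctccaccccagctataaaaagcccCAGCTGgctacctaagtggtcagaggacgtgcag
The Cox6a1 window held 1 NRF1 core and 1 ETS site, the Cox8a window 2 ETS sites, and the Cox8b window neither of these but 2 E-boxes. The windows of Cox7a1 and Cox7a2, the muscle-type and the widely expressed form of another pair, held none of these motifs, so the printed windows do not stand for all such forms. Over the 67 of 88 nuclear members with an entry, 13.4% held the NRF1 core, against 2.07% of 27025 genes with an entry, and 23.9% held the ETS site, against 9.93%. AAGGTCA, an ERR half-site, was in 11.9% of the members' windows and 5.38% of all, AAGATGG, a YY1 core, in 16.4% and 7.28%, and CAGCTG in 8.96% and 18.3%. Such a match is a description of the letters. In the knee, the members with and without a motif had median log2 ratios of -0.27 and -0.36 for the NRF1 core (9 and 57 members) and -0.48 and -0.33 for the ETS site (16 and 50). These were -0.39 and -0.36 for the ERR half-site, -0.41 and -0.35 for the YY1 core (11 and 55) and -0.29 and -0.36 for the E-box (6 and 60). The trend over length and GC was not taken out of the medians by motif. In the hip, the median of members with the motif lay below that of members without it for the ERR half-site (-1.46 and -0.95, 8 and 58 members), the NRF1 core (-1.19 and -0.98), the ETS site (-1.12 and -0.93) and the E-box (-1.29 and -0.97), and above it for the YY1 core (-0.91 and -1.03).

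In the libraries labelled Cbfb-deficient, the mitochondrially encoded and the nuclear subunits stood on different sides of their controls in both joints, though with the length and GC trend of the transcripts taken out both medians were below 0 in the hip (-0.38 and -0.73). For each gene, the log2 ratio compares its TMM-normalized count in the library labelled Cbfb-deficient with that in the control, 0.5 having been added to both, and its 95% interval covers counting error only. With 1 library per condition there is no replicate error and no test, so a gene is called higher or lower where that interval lies above or below 0. In the hip, the median log2 ratio was 0.36 over the 13 mitochondrial subunits and -0.99 over the 85 nuclear subunits with at least 10 counts, beside 0.01 over all 19856 genes measured. In the knee it was 0.86 over the 13 and -0.34 over 85 nuclear subunits, beside 0.02 over 21131 genes. Ndufb11b, Cox7b2 and Cox8c, which had at most 8 counts in any library, fell under that minimum in both joints.

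Of the 88 nuclear subunits, 81 were lower and 2 were higher in the hip library labelled Cbfb-deficient, while 33.7% of all genes measured were lower and 37.3% higher. At least 2-fold lower were 42 of the 88, or 47.7%, beside 16.3% of all genes, and none was 2-fold higher, beside 20.2%. After removal of the length and GC trend, 23 were 2-fold lower. In the knee, 70 of the 88 were lower and 14 higher, beside 29.7% and 31.9% of all genes. Scaled by library size alone, which lifts the median of all knee genes to 0.20, 56 were lower and 19 higher, and 4252 and 9092 of the 21131 genes. Only 1 nuclear subunit, Atp5if1, was 2-fold lower in the knee, beside 6.81% of all genes. Of the 13 mitochondrial subunits, 10 were higher and 3 lower in the hip, with 2 past 2-fold higher (mt-Nd5 and mt-Cytb) and 1 past 2-fold lower (mt-Nd3), while 0 were past 2-fold higher after that removal. All 13 were higher in the knee and 6 of them past 2-fold, or 12 after that removal, beside 9.0% of all genes without it.

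**Figure D1:**
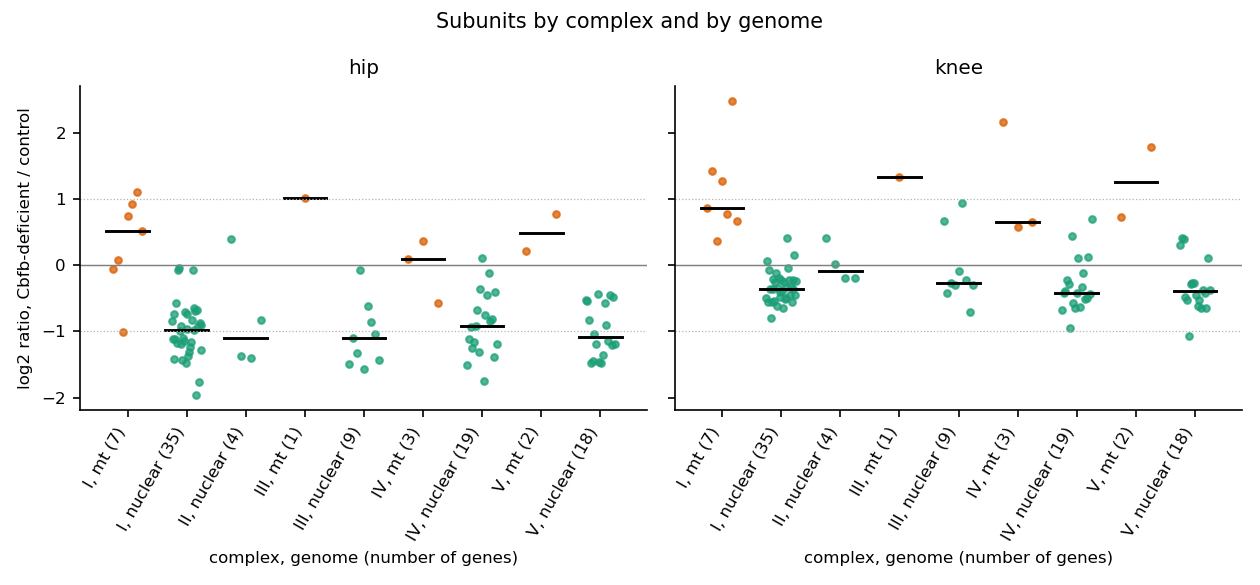
Log2 ratio of the library labelled Cbfb-deficient over its control for each subunit with at least 10 counts, by complex and genome (orange, mitochondrial; green, nuclear), with the median as a black line and dotted lines at 2-fold. In complexes I, III, IV and V the mitochondrial median lay above the nuclear median in both joints, by 1.01 to 2.11 in the hip and by 1.06 to 1.65 in the knee, though with that trend over length and GC taken out, which is not drawn, complex IV of the hip had -0.64 and -0.56.

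The gap between the genomes was present in each complex that holds subunits of both, except that with that trend over length and GC taken out it turned in complex IV of the hip (-0.64 mitochondrial, -0.56 nuclear). In complex I, the median log2 ratio was 0.51 over 7 mitochondrial and -0.98 over 35 nuclear subunits in the hip, against 0.86 and -0.35 in the knee. In complex IV it was 0.10 over 3 mitochondrial and -0.91 over 19 nuclear subunits in the hip, against 0.65 and -0.41 in the knee. In complex V it was 0.49 over 2 mitochondrial and -1.09 over 18 nuclear subunits in the hip, against 1.26 and -0.39 in the knee. In complex III, whose 1 mitochondrial subunit is mt-Cytb, the log2 ratio was 1.02 against a nuclear median of -1.09 in the hip and 1.33 against -0.27 in the knee. In the knee, 77 of the 85 nuclear subunits lay below every mitochondrial one, and in the hip 42 did, where the lowest mitochondrial one was mt-Nd3.

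These differences moved with the transcript length and GC content of the genes. The 13 mitochondrial genes had a median GC content of 37.1%, and in the hip other protein-coding genes with under 42% GC had a median log2 ratio of 1.13, against 0.02 in the knee. With the trend over length and GC removed, the mitochondrial median in the hip turned from 0.36 to -0.38. Of the 13 genes, 3 were then higher and 8 lower, beside 6855 and 6478 of all 19856 genes. The nuclear median in the hip went from -0.99 to -0.73. Of the genes above 0 in the hip without the removal, mt-Nd2, mt-Co1, mt-Co2, mt-Atp6 and mt-Nd6 lay below 0 with it, as did mt-Atp8 within its counting interval. The mitochondrial median in the knee was 1.23 on that scale and the nuclear median -0.09, with 44 nuclear subunits lower and 23 higher, beside 6368 and 6133 of all 21131 genes. The gap between the genomes was then 0.35 in the hip and 1.32 in the knee, beside 1.35 and 1.20 without the removal.

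Summed over the genes, the 13 mitochondrial subunits took 6.08% of the counts in the hip control (exact binomial 95% interval 6.07% to 6.08%, the others being as narrow) and 7.39% in the hip library labelled Cbfb-deficient. In the knee they took 1.45% in the control and 4.66% in the library labelled Cbfb-deficient. The nuclear subunits took 4.34% and 2.28% in the hip, against 1.85% and 1.74% in the knee. There were thus 1.4 mitochondrial counts for each nuclear subunit count in the hip control and 3.25 in the hip library labelled Cbfb-deficient, and 0.785 and 2.68 in the knee. All subunits together took 10.4% and 9.67% of the counts in the hip, against 3.31% and 6.40% in the knee.

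Among the mitochondrial genes, those with the most counts set these sums. The 7 genes with under 90% of their windows copied held 99.1% to 99.6% of the mitochondrial subunit counts. The mitochondrial genome lists mt-Nd1, mt-Nd2 and mt-Co1 before the other heavy-strand genes, and mt-Nd4, mt-Nd5 and mt-Cytb after them. The plot of mitochondrial genes in their order shows the level of each in the 4 libraries.

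**Figure D2:**
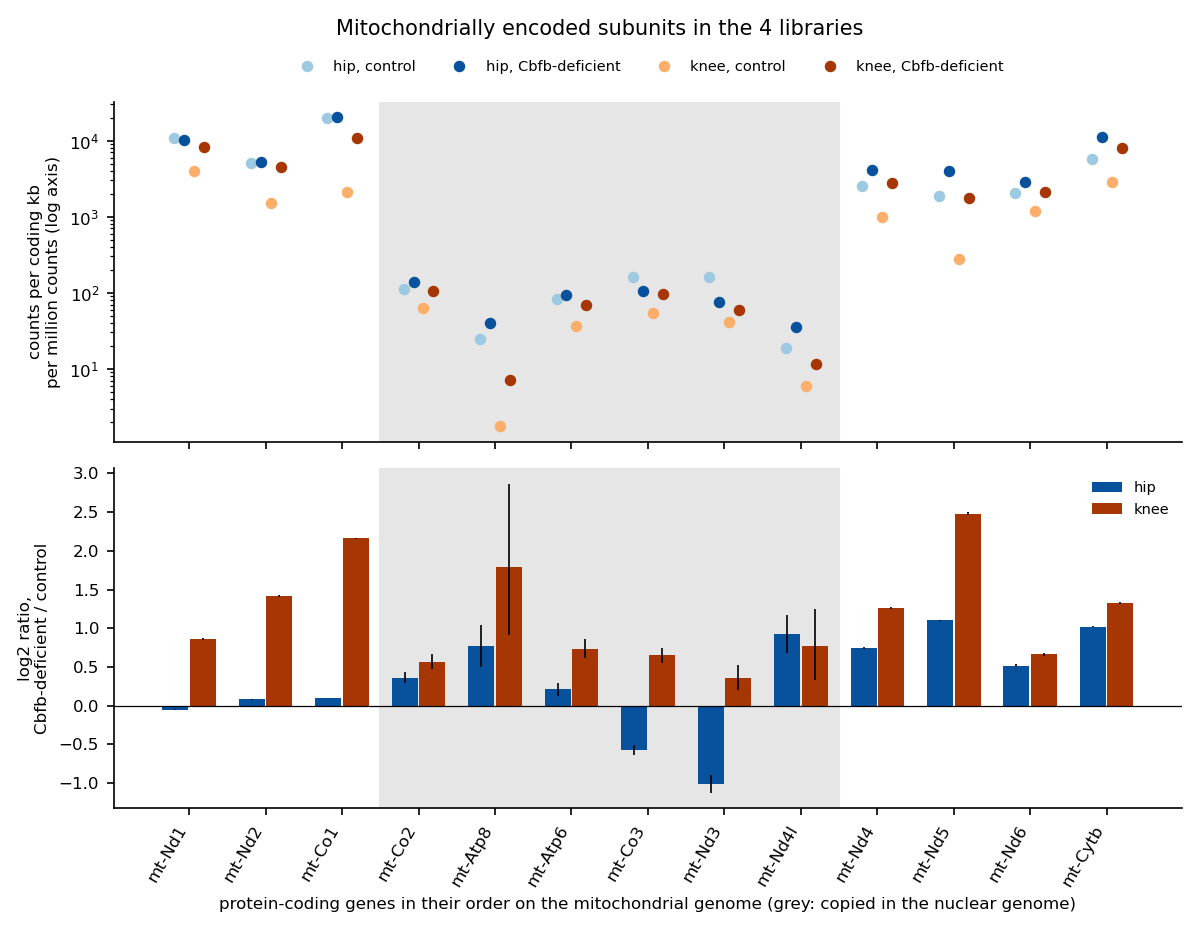
Mitochondrial protein-coding genes in genome order. Upper panel, CPM per coding kilobase on a log axis in the 4 libraries (each 1 sample), and lower panel, log2 ratio within each joint with its 95% counting interval. The 6 shaded genes, at least 98.8% of whose windows are copied in the nuclear genome, had 1.74 to 159.9 CPM per coding kilobase, and the other 7 had 278 to 20310.

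mt-Co1 (chrM:5328-6872), the catalytic core of complex IV, was the most abundant mitochondrial subunit per coding length in 3 of the 4 libraries. It had 19580 CPM per coding kilobase in the hip control, 20310 in the hip library labelled Cbfb-deficient, 2107 in the knee control and 10680 in the knee library labelled Cbfb-deficient. The hip libraries were nearly level (log2 ratio 0.10, interval 0.09 to 0.10), while the knee control stood far below its partner (2.16, 2.15 to 2.17). In the knee control, mt-Nd1 and mt-Cytb were above mt-Co1, at 4038 and 2838 CPM per coding kilobase.

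mt-Nd5 (chrM:11742-13565), a proton-pumping subunit of complex I, differed most between the knee libraries. It had 132977 counts in the hip control, 248500 in the hip library labelled Cbfb-deficient, 17331 in the knee control and 122343 in the knee library labelled Cbfb-deficient. Its log2 ratio was 1.10 (1.09 to 1.11) in the hip and 2.48 (2.46 to 2.50) in the knee, where the level was 5.58-fold higher. mt-Nd1 (chrM:2751-3707), near the other end of the heavy-strand transcript, was slightly lower in the hip (-0.05, -0.06 to -0.05) and higher in the knee (0.86, 0.85 to 0.87). Counts of mt-Nd5 per count of mt-Nd1 went from 0.333 to 0.741 in the hip and from 0.131 to 0.403 in the knee.

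Along the heavy-strand genes with few copied windows, the hip log2 ratios were -0.05 for mt-Nd1, 0.08 for mt-Nd2 and 0.10 for mt-Co1, and then 0.75 for mt-Nd4, 1.10 for mt-Nd5 and 1.02 for mt-Cytb. The genes late in this order thus had log2 ratios above those early in it, which differed little from 0. With that trend over length and GC taken out, the same genes were at -0.81, -0.67, -0.64, 0.01, 0.33 and 0.38, so that the late genes still lay above the early ones, but the early ones were below 0. The knee did not show this order, with 0.86, 1.41, 2.16, 1.26, 2.48 and 1.33 for the same genes. mt-Nd6, the subunit read from the other strand, had a log2 ratio of 0.51 in the hip and 0.66 in the knee. It overlaps mt-Nd5 only at chrM:13552-13565. The strand setting of the counting is not given in the sources used here, so the reads of mt-Nd6 cannot be told apart from antisense RNA.

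The 6 genes copied in the nuclear genome had far fewer counts. mt-Co3, for example, had 4823 counts in the hip control, 2827 in the hip library labelled Cbfb-deficient, 1469 in the knee control and 2911 in the knee library labelled Cbfb-deficient. Gm28437, an annotated copy on chromosome 1, had 4050, 2503, 968 and 2315 in the same order, and was below mt-Co3 in each library. Atp6-ps had 2358, 2643, 1215 and 2721 counts beside 2140, 2158, 838 and 1763 for mt-Atp6. Reads listed as not uniquely aligned were 13.3% and 12.8% of those in the hip libraries, and their genes of origin were not analysed here. For the 6 genes the log2 ratio ranged from -1.01 (mt-Nd3) to 0.92 (mt-Nd4l) in the hip, where mt-Co3 stood at -0.57, and from 0.36 (mt-Nd3) to 1.78 (mt-Atp8) in the knee. mt-Atp8 had 12 and 54 counts in the knee, and its interval there ran from 0.91 to 2.87. Without these 6 genes, the mitochondrial median was 0.51 in the hip, with 6 of 7 higher, and 1.33 in the knee, with 7 of 7 higher and 5 past 2-fold.

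The mitochondrial rRNAs mt-Rnr1 and mt-Rnr2, which are no subunits, had log2 ratios of -0.36 and -0.26 in the hip and of -0.17 and 0.02 in the knee. After removal of the length and GC trend these were -1.12 and -0.997 in the hip, against 0.13 and 0.32 in the knee, on the same side of 0 as the medians of the mitochondrial subunits on that scale. Their share was 0.426% in the hip control and 0.337% in the other hip library, against 0.342% and 0.375% in the knee. For each rRNA count there were 14.3 subunit counts in the hip control and 22.0 in the hip library labelled Cbfb-deficient, and 4.25 and 12.4 in the knee. Poly-A selection keeps rRNA only in part, so these shares do not give the rRNA content of the cells.

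The nuclear subunits of complex I take in the flavin and iron-sulphur arm that oxidizes NADH and a large set of accessory subunits. Of its 36 nuclear members, 34 were lower in the hip and 16 of these were 2-fold lower, and in the knee 32 were lower and 3 higher with none past 2-fold. Ndufs5, an accessory subunit, had the lowest log2 ratio of any nuclear subunit with at least 100 counts in the hip. With the trend removed, Ndufb2 lay below Ndufs5 there, at -1.90 against -1.51. Ndufs5 had 3187 counts in the hip control and 715 in the hip library labelled Cbfb-deficient (-1.96, -2.08 to -1.84), and 2681 and 2698 in the knee (-0.33, -0.41 to -0.25). Of its coding windows 52.1% have an exact copy elsewhere in the genome, as some windows of other nuclear members do. Over those of the 68 nuclear members with no such window that had at least 10 counts, the median was -1.04 in the hip and -0.33 in the knee. Ndufa6 was the highest of complex I in the hip at -0.04 (-0.09 to 0.01), an interval that reaches both sides of 0, and at 0.40 after removal of the trend. In the knee, Ndufs1, the largest iron-sulphur subunit of the NADH arm, was the highest at 0.41 (0.35 to 0.48), from 2914 and 4904 counts, and Ndufa2 the lowest at -0.79 (-0.84 to -0.74).

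Complex II, succinate dehydrogenase, is shared with the TCA cycle and has 4 nuclear subunits and no mitochondrial one. Sdha (chr13:74469359-74498436), the flavoprotein that holds the active site, was the exception among them, with 26932 counts in the hip control, 30894 in the hip library labelled Cbfb-deficient, 8201 in the knee control and 13753 in the knee library labelled Cbfb-deficient. Its log2 ratio was 0.40 (0.37 to 0.42) in the hip and 0.41 (0.37 to 0.45) in the knee, and Sdha was the 1 nuclear subunit of all 88 that was higher in both joints. Sdhb, the iron-sulphur subunit, had 35175 and 11861 counts in the hip (-1.37, -1.40 to -1.34) and 6013 and 7727 in the knee (0.02, -0.03 to 0.07). Sdhc and Sdhd, which anchor the enzyme in the membrane, were lower in both joints, though Sdhd in the knee was above 0 with that trend over length and GC taken out. Sdhc had a log2 ratio of -1.40 in the hip and -0.19 in the knee, and Sdhd -0.82 and -0.20. Counts of the catalytic and the iron-sulphur subunit of the same enzyme thus went different ways in the hip.

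Complex III, the cytochrome bc1 complex, had all 9 nuclear subunits lower in the hip, 6 of them 2-fold, and 7 lower and 2 higher in the knee. Its 2 higher ones in the knee were Cyc1 and Uqcrc2. Cyc1, the cytochrome c1 that hands electrons to cytochrome c and a gene chosen after its values were seen, had 35130 and 10899 counts in the hip (-1.49, -1.52 to -1.46) and 4061 and 8193 in the knee (0.67, 0.62 to 0.73). Uqcrc2, a core subunit, had 15337 and 8764 counts in the hip (-0.61), against 1733 and 4221 in the knee, where its 0.94 (0.86 to 1.03) was the highest log2 ratio of any nuclear subunit. Uqcrc1, the other core subunit, was the lowest of complex III in the hip at -1.57 and stood at -0.09 (-0.13 to -0.05) in the knee, where it lay above 0 with library size alone or with the trend removed. Uqcrb was the highest of the complex in the hip at -0.08, and Uqcrh, the hinge subunit, the lowest in the knee at -0.71. With the trend removed, Uqcrb was at -0.75 in the hip, below Uqcr10 at -0.65.

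Complex IV, cytochrome c oxidase, holds most of the tissue-restricted paralogs. Of its 21 nuclear members, 17 were lower and 1 higher in the hip, and 15 were lower and 4 higher in the knee. Cox6c was the 1 that was higher in the hip, at 0.11 (0.07 to 0.15) from 10328 and 9712 counts, and it was lower in the knee at -0.43 (-0.46 to -0.39), or 0.01 after removal of the length and GC trend. The muscle-type forms Cox6a2, Cox7a1 and Cox8b, which heart and skeletal muscle use in place of Cox6a1, Cox7a2 and Cox8a, made up 3 of the 4 that were higher in the knee.

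**Figure D3:**
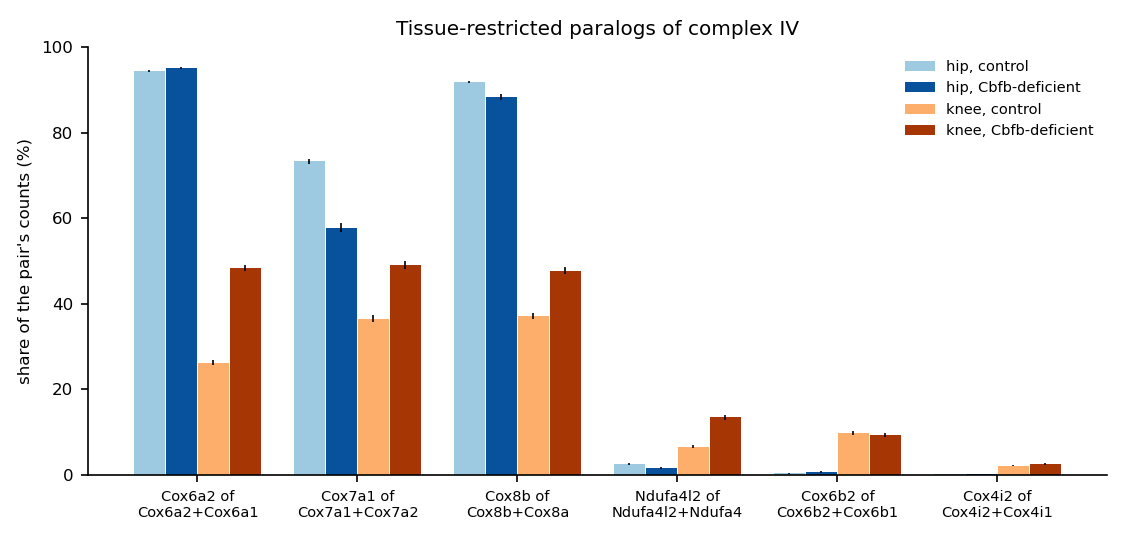
Share of the counts of each complex IV paralog pair that fell on the tissue-restricted form, in the 4 libraries (each 1 sample), with exact 95% binomial intervals for counting error. In the knee the shares of Cox6a2, Cox7a1 and Cox8b were higher in the library labelled Cbfb-deficient than in its control, and in the hip all 3 were above 57% in both libraries.

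Cox6a2 took 94.4% of the counts of the pair Cox6a1 and Cox6a2 in the hip control and 95.1% in the hip library labelled Cbfb-deficient, and 26.3% and 48.4% in the knee. In the knee, Cox6a2 went from 6323 to 10884 counts (log2 ratio 0.44, 0.40 to 0.49), while Cox6a1 went from 17753 to 11600 and was the lowest of complex IV at -0.95 (-0.99 to -0.92). In the hip, both were lower, at -0.68 for Cox6a2 and -0.91 for Cox6a1. The forms of this pair thus went different ways only in the knee, a difference between joints that was not tested.

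Cox7a1 took 73.3% and 57.8% of its pair with Cox7a2 in the hip, against 36.6% and 49.0% in the knee. It was the lowest of complex IV in the hip, with 17332 and 4506 counts (-1.75, -1.79 to -1.70), and slightly higher in the knee, with 4216 and 5751 counts (0.11, 0.05 to 0.17). Cox8b took 91.8% and 88.3% of its pair with Cox8a in the hip, against 37.2% and 47.7% in the knee, with log2 ratios of -1.38 and 0.12. Their widely expressed partners were lower in both joints, at -0.75 and -0.63 for Cox7a2 and -0.81 and -0.50 for Cox8a. The promoters of Cox8a and Cox8b printed above belong to such a pair.

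Beside these shares, all 20 genes of the skeletal muscle list were higher in the knee library labelled Cbfb-deficient, against 31.9% of all genes. Their median log2 ratio was 1.06, with a range from 0.14 (Pvalb) to 4.42 (Myh7). In the hip, 9 of the 20 were higher and 10 lower, against 37.3% and 33.7% of all genes. They ranged from -1.97 (Mb) to 3.0 (Ttn), with a median of -0.01, which turned above 0 with the trend removed. The part of muscle RNA in the log2 ratios of the subunits was not tested. In the knee, the log2 ratios of Cox6a2, Cox7a1 and Cox8b, from 0.11 to 0.44, lay below the median of that list, and the median of all nuclear subunits lay on the other side of 0.

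The other paralogs were rarer. Ndufa4l2, a paralog of Ndufa4 known as a hypoxia target, had 437 and 166 counts in the hip (-1.20, -1.47 to -0.94) and 840 and 1728 in the knee, where its 0.70 (0.58 to 0.82) was the highest log2 ratio of complex IV. Its share of the pair with Ndufa4 went from 2.63% to 1.53% in the hip and from 6.65% to 13.5% in the knee, while Ndufa4 itself was lower in both joints, at -0.41 and -0.43, though above 0 in the knee with the trend removed. Of the 15 genes on a list of hypoxia targets, 10 were higher and 5 lower in the hip, beside 37.3% and 33.7% of all genes, and 8 were higher and 2 lower in the knee, beside 31.9% and 29.7%. Cox4i2, the lung-type form, took at most 2.63% of its pair with Cox4i1 in any library, and Cox4i1 stood at -1.51 in the hip and -0.67 in the knee. Cox6b2, the testis-type form, took 0.410% and 0.788% of its pair with Cox6b1 in the hip, against 9.75% and 9.30% in the knee. Cox7b was close to level, at -0.12 in each joint, but with the trend removed it was at -0.61 in the hip and 0.19 in the knee. By library size alone its knee value was also above 0, and its partner Cox7b2 was at 0 in all 4 libraries. Cox7a2l, which helps join complexes III and IV, was lower at -0.44 in the hip, a value above 0 with the trend removed, and at -0.33 in the knee.

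Complex V, the ATP synthase, had all 18 nuclear members lower in the hip, 10 of them 2-fold, and 14 lower and 4 higher in the knee. Atp5f1b (chr10:127919132-127926261), the catalytic beta subunit, had 165043 and 99437 counts in the hip (-0.53, -0.54 to -0.52) and 26571 and 44527 in the knee (0.41, 0.38 to 0.43). The other 3 that were higher in the knee were the alpha and gamma subunits Atp5f1a at 0.30 and Atp5f1c at 0.39 and the peripheral stalk subunit Atp5pf at 0.11, which were at -0.52, -0.83 and -0.48 in the hip. Atp5f1d, the delta subunit of the rotor, was the lowest of the complex in the hip at -1.47 and was lower in the knee at -0.48. The ring of the rotor is built from a protein that 3 genes encode. Atp5mc1, Atp5mc2 and Atp5mc3 had log2 ratios of -1.19, -0.43 and -1.46 in the hip, so that the share of Atp5mc2 in their counts went from 11.7% to 19.6%, and with the trend removed Atp5mc2 was above 0 in the hip and Atp5mc1 in the knee. In the knee they stood at -0.28, -0.27 and -0.27, and the share of Atp5mc2 was 14.3% in the control and 14.4% in the library labelled Cbfb-deficient. Atp5mc2 has an exact second copy of 100% of its coding windows in the genome, and Atp5mc1 of 92.2%, so their counts are uncertain.

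Atp5if1, which inhibits the synthase from running in reverse and is abundant in red cell precursors, had the lowest log2 ratio of any nuclear subunit in the knee. It had 522 counts in the hip control, 221 in the hip library labelled Cbfb-deficient, 8495 in the knee control and 5118 in the knee library labelled Cbfb-deficient. The log2 ratio was -1.04 (-1.28 to -0.81) in the hip and -1.07 (-1.12 to -1.02) in the knee. The knee control, with the highest count, was also the library with the largest share of erythroid genes. Of the 7 erythroid genes, 7 were lower in the hip and 6 in the knee, beside 33.7% and 29.7% of all genes, with medians of -1.12 and -1.10. The part of erythroid RNA in these values was not tested.

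**Figure D4:**
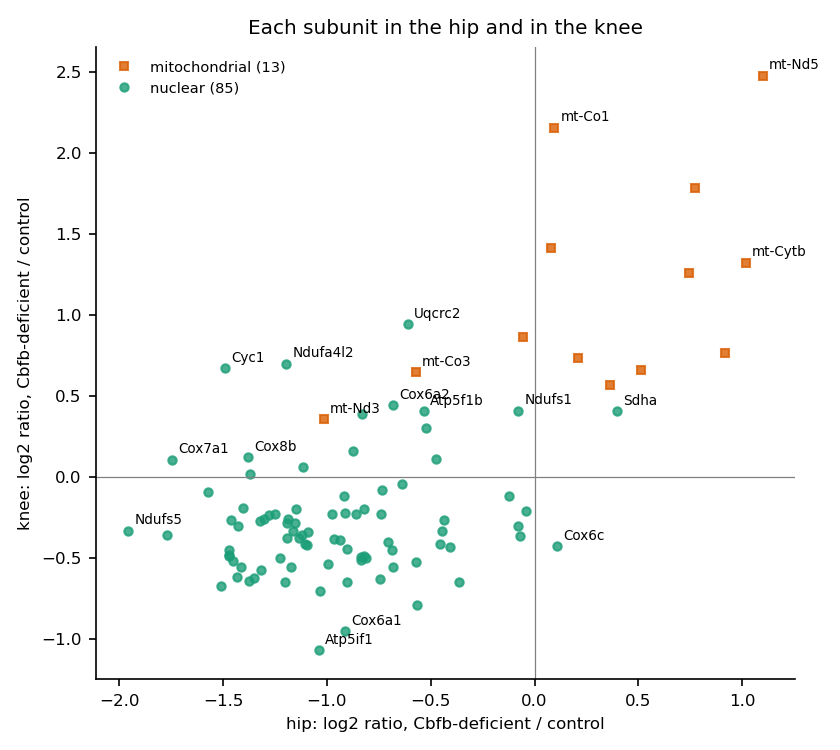
Log2 ratio of the library labelled Cbfb-deficient over its control in the hip (horizontal axis) and the knee (vertical axis) for the 13 mitochondrial (squares) and 85 nuclear (circles) subunits with at least 10 counts. The mitochondrial genes lay above 0 in the knee, and 67 nuclear genes lay below 0 beyond their counting intervals in both joints, or 42 after removal of the length and GC trend, which is not drawn.

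Across the joints, 67 of the 88 nuclear subunits were lower in both libraries labelled Cbfb-deficient, 1 was higher in both and 14 went opposite ways. Of the 17594 genes measured in both joints, 12.9%, 18.1% and 20.5% did so. After removal of the length and GC trend, the nuclear counts were 42, 2 and 22, beside 12.2%, 14.1% and 20.3% of all genes. Of these 14, 13 were lower in the hip and higher in the knee: Ndufa10, Ndufs1, Ndufv1, Cyc1, Uqcrc2, Cox6a2, Cox7a1, Cox8b, Ndufa4l2, Atp5f1a, Atp5f1b, Atp5f1c and Atp5pf, and the other was Cox6c. After removal of the trend, Ndufa10 was below 0 in both joints (-0.19 in the knee), and Cox6c and Atp5pf were at 0.01 in the knee. Of the mitochondrial subunits, 10 were higher in both joints, and mt-Nd1, mt-Nd3 and mt-Co3 were lower in the hip and higher in the knee. After removal of the trend, 3 mitochondrial subunits were higher in both joints and 8 went opposite ways. The 13 nuclear genes had a median transcript length of 1926 bases, against 971 for the 67 that were lower in both. In 1 edgeR quasi-likelihood fit over both joints, with joint as a block, an alternative chosen after the data were seen that leaves 1 residual degree of freedom, 0 of 17594 genes (0%) and so 0 members passed an adjusted p of 0.05. The median log2 fold change was 0.64 over the 13 mitochondrial and -0.78 over 85 nuclear subunits, and an unadjusted p under 0.05 was given to 1 of the former (higher), 8 of the latter (all lower) and, over all genes, 624 higher and 420 lower.

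**Figure D5:**
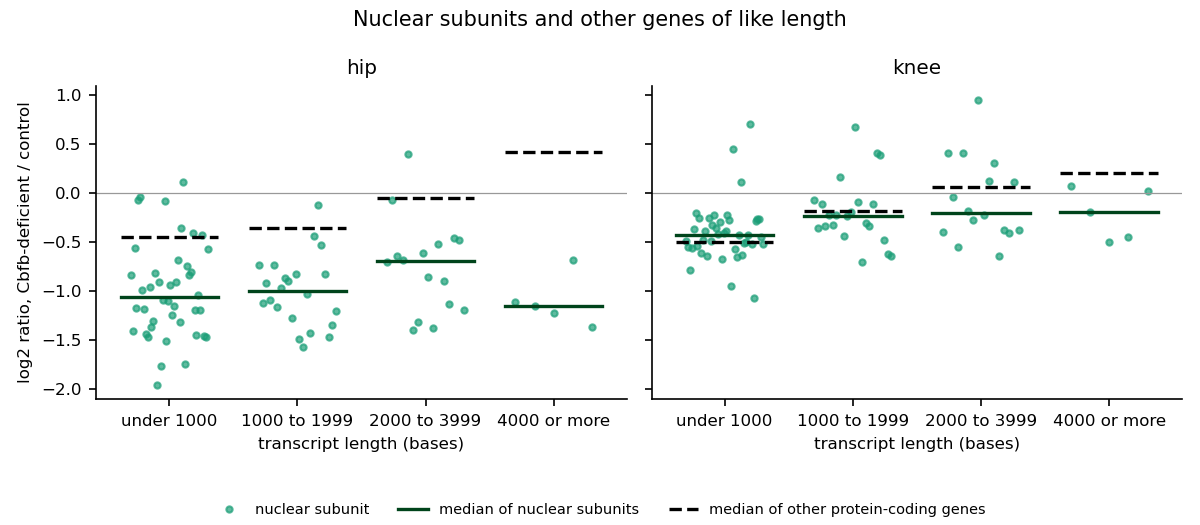
Log2 ratios of the nuclear subunits (points) by transcript length in the hip and the knee, with their median (solid line) and the median of all other protein-coding genes of that length (dashed line). In the hip the subunits lay below genes of like length in all 4 classes, and in the knee the 2 medians lay close together under 2000 bases.

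The nuclear subunits had a median transcript length of 1014 bases, against 2883 over all genes measured in the hip and 2698 in the knee. Short transcripts as a class were lower in both joints. Among other protein-coding genes under 1000 bases, the median log2 ratio was -0.45 in the hip and -0.50 in the knee. The 42 nuclear subunits of that length had a median of -1.07 in the hip, with 35 of 42 below the median of the other genes, and -0.43 in the knee, with 16 of 42 below it. From 1000 to under 2000 bases, the 22 subunits had a median of -1.0 against -0.36 in the hip and -0.23 against -0.19 in the knee. The 16 subunits from 2000 to under 4000 bases had a median of -0.69 against -0.05 in the hip and -0.21 against 0.06 in the knee, and the 5 longer ones -1.15 against 0.42 in the hip and -0.20 against 0.20 in the knee. The subunits in the hip thus lay below other genes in each length class, and those in the knee lay close to them under 2000 bases and below them in the longer classes. Across the 85 genes, which share their libraries and are not replicates, the log2 ratio had a Spearman correlation of 0.406 with transcript length in the knee and 0.056 in the hip, and of -0.434 with GC content in the hip and -0.099 in the knee.

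Genes that work beside the complexes were read from lists. Of 17 TCA cycle and pyruvate dehydrogenase genes, which feed electrons to complexes I and II, 13 were lower and 4 higher in the hip (median -0.44), and 15 were higher and 1 lower in the knee (median 0.49). For these counts and those that follow, 33.7% of all genes were lower and 37.3% higher in the hip, against 29.7% and 31.9% in the knee. Mdh2, malate dehydrogenase, stood lowest in the hip at -1.09 and was at 0.29 in the knee. Of 17 electron carrier and ADP/ATP exchange genes, 14 were lower and 2 higher in the hip and 4 lower and 7 higher in the knee, where 14 were measured. In the knee, the share that was lower lies near that of all genes, and the share that was higher lies above it. Assembly factors followed the subunits in the hip with smaller medians, at -0.65 for complex I (13 of 19 lower), -0.49 for complexes II and III (10 of 13), -0.42 for complex IV (14 of 22) and -0.67 for complex V (4 of 5). In the knee their medians were -0.05, -0.28, -0.13 and -0.11, of which those of complexes I and V lay above 0 by library size alone and with the trend removed, and that of complex IV by library size alone.

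Regulators of mitochondrial gene expression went both ways. Of 14 biogenesis regulators, 8 were higher and 5 lower in the hip (median 0.49), and 10 were higher and 2 lower in the knee (median 0.42). The 5 lower in the hip are a share near the 33.7% of all genes. Ppargc1a, a coactivator of mitochondrial genes, had 578 and 1681 counts in the hip (1.74, 1.6 to 1.88) and 84 and 259 in the knee (1.28, 0.92 to 1.66). Its relative Ppargc1b stood at -0.19 (-0.39 to -0.004) in the hip and -0.05 (-0.33 to 0.22) in the knee. Esrra, the nuclear receptor that works with them, was lower in the hip at -1.02 and higher in the knee at 0.40. Nrf1, which binds the motif described above, was at 0.70 in the hip and -0.08 (-0.17 to 0.02) in the knee, and Gabpa, an ETS factor, at 1.61 and 0.44. Tfam, which packages mitochondrial DNA and starts its transcription, was at 0.08 (-0.03 to 0.19) and -0.22 (-0.32 to -0.11), and Polrmt, the mitochondrial RNA polymerase, at -0.52 and 0.09 (-0.07 to 0.25). Of 23 genes for mitochondrial transcription and RNA handling, 8 were higher and 6 lower in the hip and 3 higher and 10 lower in the knee, with medians of 0.06 and -0.05. The shares that were higher lie near the 37.3% of all genes in the hip and below the 31.9% in the knee, and with that trend over length and GC taken out the median in the hip was -0.36. On that scale the hip value was -0.53 for Tfam, 0.50 for Ppargc1a, 0.51 for Gabpa, 1.11 for Nrf1, -0.43 for Esrra, -0.11 for Polrmt and 0.12 for Ppargc1b.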

How the data were processed

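RNA was sequenced from 4 samples (hip and knee, control and labelled Cbfb-deficient), so each comparison is 1 library against 1 library. The authors deposited 1 raw, unnormalized whole-number count for each Ensembl gene and sample. The submitters' processing notes name FastQC 0.11.3, STAR 2.0 and the mm10 build, whereas the study's methods give GRCm39. The hip files end with HTSeq summary lines, which held 25.8% and 24.6% of the reads listed and were left out. The counting program of the knee files and the strand setting are not given in the sources used here. Totals and the resulting floors stand in the report.

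Gene identifiers were matched to GENCODE vM39 (GRCm39), which held 91.8% of those in the hip files and 92.6% of those in the knee files, and length and GC content are those of canonical transcripts. Normalization was edgeR 4.0.16 TMM within each pair (R 4.3.3), and other steps used Python 3.11.15, numpy 2.4.6, pandas 2.3.3, scipy 1.17.1 and matplotlib 3.10.9. The log2 ratio had 0.5 added to each count, and its exact Clopper-Pearson 95% interval, conditional on the sum of both counts, covers counting error only. Genes needed at least 10 counts over the pair, and a 2-fold call also needed an interval that excluded 0. No test was made between single libraries. The 1 test, added after the data were seen, was an edgeR quasi-likelihood fit of joint and condition over all 4 libraries. In its simulation of 17594 genes it recovered 33 of 200 genes changed 4-fold. The trend over transcript length and then GC content was removed by subtracting medians of 20 bins over all genes in 2 rounds. Copies were found by exact match of 100-base windows of the coding sequence to both strands of GRCm39. RefSeq promoter windows (GRCm38.p6) were matched by symbol, 13 of 67 through an older symbol. The rule for calling single genes was tested on simulated counts. These held counting error only, with no variation between libraries, and were scaled by library totals. With 200 well-counted genes changed 4-fold, all 200 were found again both in the hip simulation of 19856 genes and in the knee simulation of 21131. Of the unchanged genes, 0.845% and 0.784% were called, which is not the error rate of calls between the real libraries.

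The members and lists were chosen with earlier results of these data known. Genes named are the 13 mitochondrial genes, the 4 Sdh genes, listed complex IV and V paralogs, Ndufa4, Ndufa4l2, Cox7a2l, Atp5if1, the highest and lowest nuclear member of each complex and joint that reached 100 counts in 1 library or the other, 7 regulators, and some of the highest and lowest genes of the fixed lists. Cyc1, Ndufa10 and the others that went opposite ways in the joints were named after their values were seen. A gene that the rule names is not reported here. Alternatives were DESeq2 1.42.0 size factors, library size alone, TMM without mitochondrial or skeletal muscle genes, an added count of 2, other count filters, trend removal, a 1.5-fold call and smaller member sets.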

Additional observations from a re-analysis of the deposited data

Results flagged for a closer look

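Some subunits lay on opposite sides of their control in the hip and the knee, each beyond its counting interval and by at least 2-fold in 1 joint. The difference between the joints was not tested, since each joint has 1 library per condition. The joints also differ in the Cre line, the age, what the control was, and the gene list and form of the count files. mt-Nd3, a complex I subunit whose windows are copied in the nuclear genome, had a log2 ratio of -1.01 in the hip and 0.36 in the knee. Cyc1, the cytochrome c1 of complex III, had -1.49 and 0.67. The muscle-type complex IV subunits Cox7a1 and Cox8b had -1.75 and 0.11, and -1.38 and 0.12. Ndufa10, an accessory subunit of complex I, had -1.11 and 0.0652, the latter with an interval from 0.0021 to 0.13, and after removal of the length and GC trend its knee value was -0.19, on the same side as the hip. Ndufa4l2 had -1.20 in the hip and 0.70 in the knee.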

How the results depend on the processing

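Within a joint, no paired analysis was possible because the labels give no replicate numbers and each joint has 1 library per condition. For the latter reason no replicate was left out. The 1 fit that paired the libraries by joint, with the joints as a block although they differ in Cre line, age and control, called 0 genes. Shares of counts use no normalization and have no alternative. Removal of the length and GC trend turned the mitochondrial median in the hip to -0.38 and moved the nuclear medians to -0.73 and -0.092 and the gap between genomes in the hip to 0.35. The 2-fold calls then numbered 25 of 101 members in the hip (0 mitochondrial higher, 23 nuclear lower) and 12 in the knee (12 and 0), against 45 (2 and 42) and 7 (6 and 1) without removal. A 1.5-fold rule called 74 members in the hip (5 mitochondrial higher, 68 nuclear lower) and 26 in the knee (11 and 12). DESeq2 size factors moved the nuclear median in the hip to -1.06 and left 1 mitochondrial gene 2-fold higher there, as did library size alone with 1. Library size alone moved the nuclear median in the knee to -0.16 and left 0 nuclear genes 2-fold lower, as did leaving out the rarer paralogs with Ndufa4, Cox7a2l and Atp5if1, also with 0. Without the mitochondrial genes copied in the nuclear genome, an alternative chosen after the data were seen, the mitochondrial median was 0.51 in the hip and 1.33 in the knee and the gap 1.51 and 1.66. All other alternatives kept the direction of these medians and counts within 1.5 times. Of 792 values of single genes and lists under alternatives, 22 turned direction with both values beyond their counting intervals or, for lists, with the reported median beyond that of its members. Another 20 changed sign with a value inside its interval, among them the medians of mitochondrial transcription, mtDNA maintenance and complex I and IV assembly genes. Library size alone turned, in the knee, Cbfb to 0.11, Cox7b to 0.064, Uqcrc1 to 0.090 and the complex V assembly median to 0.072. Removal of the trend turned, in the hip, Atp5mc2 to 0.17, Cox7a2l to 0.10, mt-Atp6 to -0.54, mt-Co1 to -0.64, mt-Co2 to -0.38, mt-Nd2 to -0.67, mt-Nd6 to -0.36, the skeletal muscle median to 0.32 and Cbfb to -0.28, and, in the knee, Atp5mc1 to 0.11, Cox7b to 0.19, Ndufa4 to 0.05, Ndufa6 to 0.21, Ndufa10 to -0.19, Sdhd to 0.060, Uqcrb to 0.28, Uqcrc1 to 0.044 and the complex V assembly median to 0.28. The cause was not tested. Cox7b2, Cox8c and Ndufb11b had too few counts to compare, and low counts widen the intervals of members such as Cox6b2 in the hip and mt-Atp8 in the knee.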
